A study of Arabidopsis thaliana with 119 samples.

Results

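The ATG8 family of Arabidopsis thaliana comprises 9 genes, which were chosen by their gene IDs: ATG8A (AT4G21980), ATG8B (AT4G04620), ATG8C (AT1G62040), ATG8D (AT2G05630), ATG8E (AT2G45170), ATG8F (AT4G16520), ATG8G (AT3G60640), ATG8H (AT3G06420) and ATG8I (AT3G15580). They make up 9 of the 32833 genes in the count table. All 9 members passed the filter on low counts that left 20025 tested genes, and each had reads in all 119 libraries. The smallest member count in any library was 16 reads, for ATG8H, and the largest was 7727 reads, for ATG8F.

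ATG8 proteins are small, ubiquitin-like proteins of the autophagy pathway, in which a double membrane closes around cytoplasm and delivers it to the vacuole for breakdown. ATG4 proteases trim the end of ATG8 to expose a glycine, and ATG7 and ATG3 then link that glycine to phosphatidylethanolamine, so that ATG8 sits in the growing membrane. There it helps the membrane expand and binds receptors such as NBR1, and in leaves the pathway is known for recycling nitrogen from proteins and chloroplast material when nitrogen is short or leaves age.

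RNA was sequenced from rosettes of 5 wild strains (Bur-0, Col-0, Cvi-0, Tsu-0 and Sha), for which the labels name no transgene. Plants stood on peat plugs under an 8 h photoperiod and were transferred after 8 days to a Phenoscope, a robot that waters each pot by itself. Rosettes were harvested at an age of 31 days. In the control treatment, W+N+, each pot got 160.45 ± 7.96 ml over the whole period, at 5.0 mM nitrate. The drought treatment, W-N+, used that same concentration in a smaller volume (50.85 ± 4.67 ml). Nitrogen deficiency, W+N-, meant 161.93 ± 11.07 ml at 0.5 mM, and combined stress, W-N-, meant 50.7 ± 4.1 ml at 1.5 mM. Total nitrate was thus about 802, 254, 81.0 and 76.1 µmol in the order given. Each of the 20 groups of accession and treatment had 6 libraries, except Bur-0 W+N+ with 5. The labels do not say what the ± values are or whether the lettered replicates are separate plants or pools, and the p-values measure the spread between libraries.

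Total counts per library ranged from 9698708 to 110420763, with a median of 17998283. Marker genes of photosynthetic leaf cells summed to between 20769 and 102494 CPM (counts scaled by TMM-adjusted library size) in every library, and 8 flower markers summed to at most 11.1 CPM. Markers of roots summed to 65.7 to 333 CPM. There were 5 libraries that lay far from their group over all genes: Tsu-0 W+N- d, Sha W+N- b, Cvi-0 W+N+ c, Col-0 W+N+ f and Bur-0 W-N- c. In each of the 5, shorter transcripts were high relative to longer ones, with slopes of the deviation from the group on transcript length (both log2) from -0.404 in Tsu-0 W+N- d to -0.142 in Cvi-0 W+N+ c. Negative slopes were not confined to these 5 libraries. Another library of Cvi-0 W+N+ had a steeper slope (-0.175), and the steepest of Sha W-N-, a group without a far library, was -0.236. The longest annotated transcripts of the members span 712 to 1259 bases, and all 9 are shorter than the median of 1726 bases over tested genes with a known length. In bulk rosette RNA, a change in the share of a cell type cannot be told apart from a change in RNA per cell.

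The members differ at the site where ATG4 acts, and the coding ends are shown for that reason. Each line gives the last 36 coding bases with the stop codon, 5′ to 3′ on the coding strand, with the codon of the glycine that becomes joined to the lipid in capitals (RefSeq, TAIR10.1).

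ATG8A: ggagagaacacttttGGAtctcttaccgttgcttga
ATG8B: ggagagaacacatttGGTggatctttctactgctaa
ATG8C: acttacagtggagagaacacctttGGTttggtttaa
ATG8D: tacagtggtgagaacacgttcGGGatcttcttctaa
ATG8E: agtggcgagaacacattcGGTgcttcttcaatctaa
ATG8F: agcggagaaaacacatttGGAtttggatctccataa
ATG8G: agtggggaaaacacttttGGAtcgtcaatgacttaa
ATG8H: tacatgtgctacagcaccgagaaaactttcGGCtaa
ATG8I: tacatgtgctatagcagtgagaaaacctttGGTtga

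In ATG8A and ATG8B 5 codons follow the glycine codon, in ATG8E, ATG8F and ATG8G 4, in ATG8D 3 and in ATG8C 2. ATG8H and ATG8I end at the glycine, a form that is known to need no trimming. The coding ends lie in TAIR10.1 at chr4:11656774-11656809 (ATG8A, plus strand), chr3:22416936-22416971 (ATG8G, plus strand), chr2:18625491-18625526 (ATG8E, plus strand), chr4:9306882-9306917 (ATG8F, minus strand) and chr2:2083211-2083246 (ATG8D, minus strand), each in a single exon. Over aligned residues, the predicted proteins of ATG8A and ATG8B shared 87.7% identity, the highest of any pair of members. ATG8F and ATG8H shared 42.2%, the lowest, while ATG8H and ATG8I shared 68.7% with each other.

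The 250 bases before the annotated gene start are shown for the members with the largest rise under nitrogen deficiency (ATG8A and ATG8G), for the member that fell (ATG8E) and for ATG8I, which held the most matches. Capitals mark TGACG on either strand, the core bound by TGA-type bZIP factors, and in ATG8I also ACGTGG, a core bound by factors of the abscisic acid response.

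ATG8A upstream: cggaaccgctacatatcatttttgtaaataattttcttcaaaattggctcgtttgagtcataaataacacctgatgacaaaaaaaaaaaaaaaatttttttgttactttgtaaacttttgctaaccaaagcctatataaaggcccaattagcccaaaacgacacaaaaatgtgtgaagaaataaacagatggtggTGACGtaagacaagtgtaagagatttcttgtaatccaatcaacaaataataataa
ATG8G upstream: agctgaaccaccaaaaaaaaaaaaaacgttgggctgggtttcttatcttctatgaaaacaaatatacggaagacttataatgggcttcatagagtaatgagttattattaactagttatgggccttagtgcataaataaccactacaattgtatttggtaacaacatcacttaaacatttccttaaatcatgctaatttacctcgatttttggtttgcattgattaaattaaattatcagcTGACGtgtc
ATG8E upstream: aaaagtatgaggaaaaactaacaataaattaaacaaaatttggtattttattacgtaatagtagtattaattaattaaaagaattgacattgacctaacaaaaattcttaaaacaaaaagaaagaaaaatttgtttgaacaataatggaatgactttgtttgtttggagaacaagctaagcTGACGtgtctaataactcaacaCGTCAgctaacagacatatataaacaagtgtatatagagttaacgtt
ATG8I upstream: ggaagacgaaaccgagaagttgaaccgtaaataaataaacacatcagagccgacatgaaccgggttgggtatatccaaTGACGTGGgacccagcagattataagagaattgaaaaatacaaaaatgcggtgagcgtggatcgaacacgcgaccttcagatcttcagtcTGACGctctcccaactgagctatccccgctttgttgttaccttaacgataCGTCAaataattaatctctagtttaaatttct

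The windows are chr4:11655312-11655561 (ATG8A, plus strand), chr3:22415501-22415750 (ATG8G, plus strand), chr2:18624014-18624263 (ATG8E, plus strand) and chr3:5275096-5275345 (ATG8I, minus strand), and all are written 5′ to 3′ on the strand of the gene. TGACG was present in 6 of the 9 windows (66.7%; ATG8A, ATG8E, ATG8F, ATG8G, ATG8H and ATG8I), against 18.6% of the windows of 27443 protein-coding genes. The palindrome CACGTG was found in 0 of 9 windows (6.5% of all), and ACGTGG in 1 of 9, that of ATG8I, where it overlaps a TGACG (8.2% of all). In ATG8I, 1 of the 3 TGACG matches lies inside an annotated gene for a phenylalanine tRNA of 73 bases, at chr3:5275149-5275221 on the opposite strand. The window of ATG8H runs into the neighbouring gene PPR2, which reaches to position -12 from the ATG8H start. The only TGACG match of ATG8H, at -89, lies inside PPR2. TGACG occurred both in members that rose under nitrogen deficiency and in ATG8E, which fell, and these matches are letters in a window, not binding sites.

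Under the control treatment, ATG8F was the most abundant member, and ATG8B, ATG8H and ATG8G had the lowest levels. Because counts grow with transcript length, levels were compared between genes as CPM per kb of the longest annotated transcript, with the mean ± SD over 29 control libraries. ATG8F stood at 43.7 ± 3.95 CPM per kb and was above the next gene, ATG8A, in all 29 control libraries. ATG8A (23.5 ± 5.72 CPM per kb) and ATG8I (22.3 ± 4.47) were close, with ATG8A above ATG8I in 19 of 29. ATG8D (14.6 ± 7.89 CPM per kb) and ATG8C (14.2 ± 2.48) had close means, but their order differed by accession. ATG8D was above ATG8C in the 6 libraries of Sha (28.6 against 12.1 CPM per kb on average) and in none of the other 23. In the other accessions the means of ATG8D and ATG8C were 8.54 and 13.6 CPM per kb in Col-0, 11.7 and 14.2 in Bur-0, 13.4 and 16.9 in Cvi-0, and 10.3 and 14.1 in Tsu-0. Below them came ATG8E (9.90 ± 2.27 CPM per kb), ATG8B (5.50 ± 2.46), ATG8H (4.87 ± 1.43) and ATG8G (4.02 ± 0.946). ATG8E exceeded ATG8B in 28 of 29 libraries, whereas ATG8B exceeded ATG8H in 17 and ATG8H exceeded ATG8G in 19, so that the order of the lowest 3 was not steady. In Bur-0 ATG8B was the lowest of them (2.48 CPM per kb, with 3.26 for ATG8H and 3.64 for ATG8G). With the shortest annotated transcript as the length, a setting added after seeing the data, ATG8C (18.3 CPM per kb) moved ahead of ATG8D (14.9), and the other 7 genes kept their places. ATG8F provided 31.0% ± 3.82 of the summed family level per kb in control libraries, ATG8A 16.4% ± 2.97 and ATG8I 15.6% ± 1.77 (SD, n = 29).

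**Figure D1:**
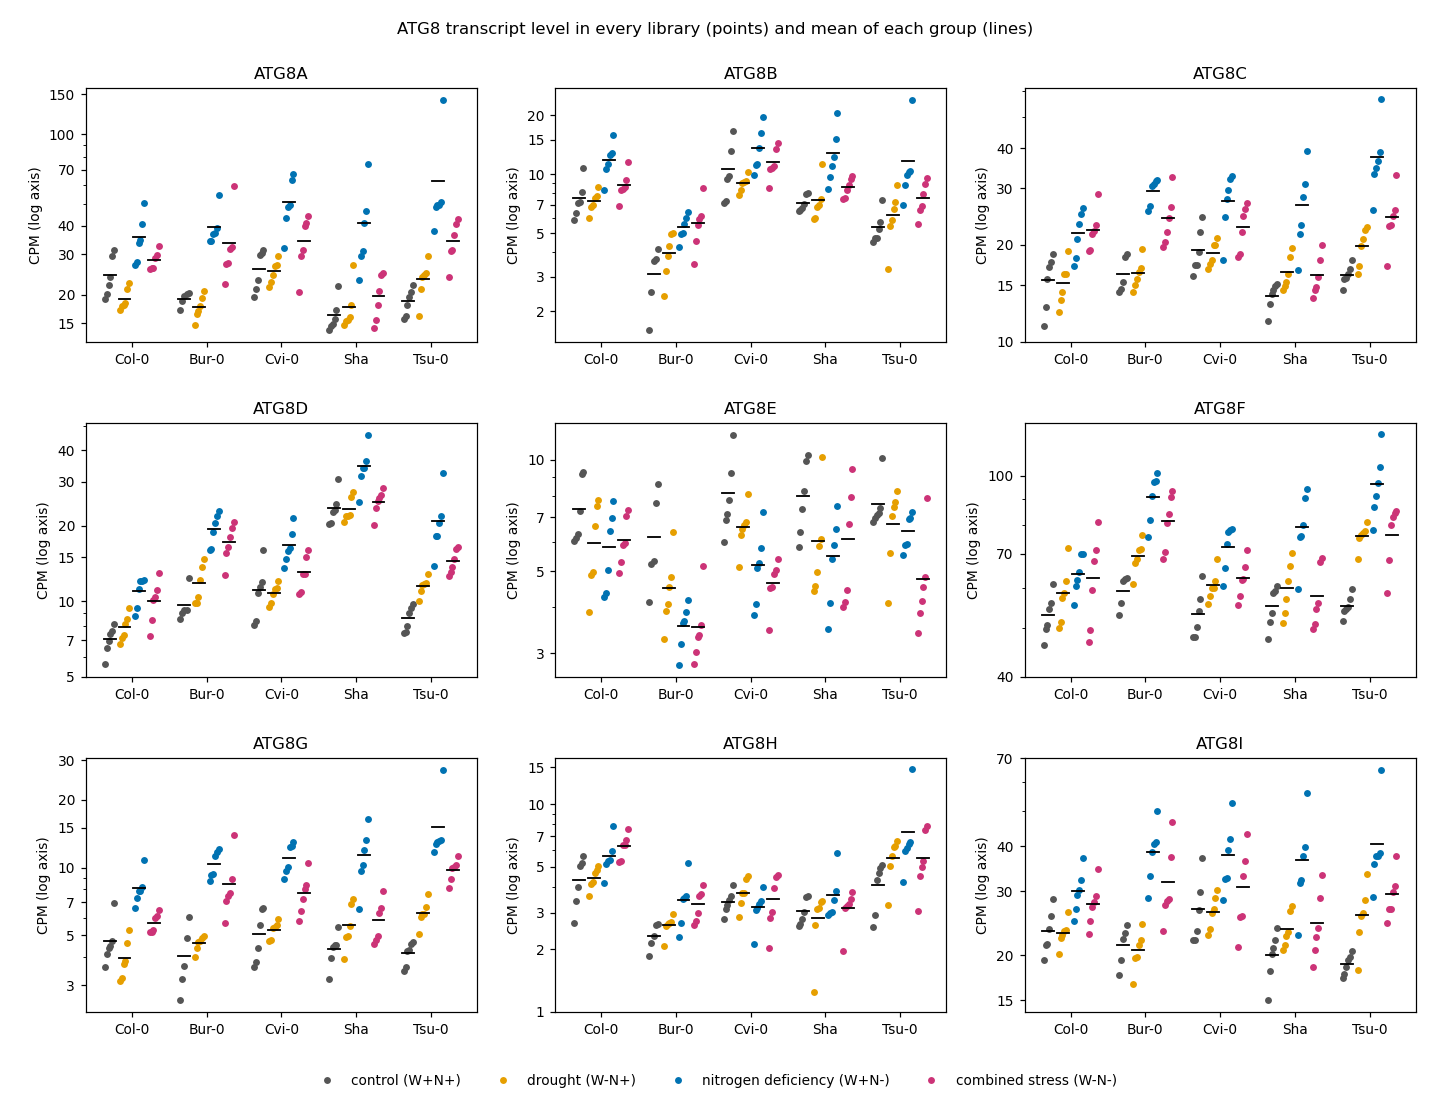
CPM of each ATG8 gene (log axis) in every library, by accession and treatment; points are libraries in order of value and lines are group means. ATG8F has the highest mean in each of the 20 groups, blue points (nitrogen deficiency) lie highest in most panels, the ATG8E panel runs the other way, and the single blue point far above the rest of Tsu-0 is library d (142 CPM for ATG8A).

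Nitrogen deficiency raised 8 of the 9 members and lowered ATG8E. Averaged over the 5 accessions, 8 members were called higher and 1 lower at an edgeR adjusted p below 0.05, where 36.6% of all tested genes were called higher and 31.4% lower. The median change of the family was 0.74 log2, against 0.05 over all tested genes. The summed level of 5 photosynthetic leaf markers had a lower median in each accession under nitrogen deficiency, 36946 CPM against 56750 in the control in Col-0, 32207 against 51276 in Bur-0, 34178 against 52281 in Cvi-0, 39491 against 52760 in Sha and 31835 against 52217 in Tsu-0. The ranges overlapped in Col-0, Cvi-0 and Sha and not in Bur-0 and Tsu-0. The part of these markers in the ATG8 changes was not tested.

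ATG8G, 1 of the 3 members with the lowest levels in the control, had the largest rise. Its CPM ranged from 2.57 to 6.96 with a median of 4.39 in control libraries, and from 6.52 to 27.2 with a median of 11.1 in nitrogen-deficient libraries. The ranges overlapped only between 6.52 and 6.96 CPM. The change was 1.30 ± 0.08 log2 (SE), or 2.46-fold (edgeR adjusted p = 3.91e-29). ATG8A ran from 14.0 to 31.5 CPM in control libraries, with a median of 20.1, and from 23.2 to 142 CPM under nitrogen deficiency, with a median of 40.9. Its change was 1.12 ± 0.09 log2, or 2.18-fold (adjusted p = 4.44e-21). ATG8A shares 27 bases with APR3, a gene of sulfate assimilation on the opposite strand. APR3 was lower under nitrogen deficiency (-0.42 ± 0.08 log2), opposite to ATG8A.

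ATG8C, ATG8D, ATG8B and ATG8I rose by similar amounts, from 0.74 to 0.81 log2 (1.67-fold to 1.76-fold). ATG8D had a control median of 9.24 CPM and a nitrogen-deficient median of 18.4 CPM, and ATG8C moved from 15.8 to 27.9 CPM. ATG8B moved from 6.77 to 10.5 CPM. ATG8I moved from a median of 21.5 CPM (at most 37.1) to 36.4 CPM (22.7 to 64.8). In all 4, the ranges over the 5 accessions overlapped between the treatments. ATG8I shares 183 bases with AT3G15578 on the opposite strand, and that gene had 0 reads in every library.

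ATG8F, the most abundant member, rose less on the log scale than the members above. It ran from 46.2 to 63.3 CPM in control libraries and from 55.6 to 121 CPM under nitrogen deficiency, with means of 55.1 ± 4.98 (SD, n = 29) and 80.4 ± 15.5 (SD, n = 30). The change was 0.53 ± 0.04 log2, or 1.44-fold (adjusted p = 1.13e-21). ATG8H, 1 of the 2 members without residues after the glycine, changed least among those that rose, by 0.39 ± 0.09 log2 (adjusted p = 1.23e-04). Its medians were 3.28 CPM in control and 3.90 CPM in nitrogen-deficient libraries, with wide overlap.

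ATG8E was the only member called lower. It ran from 4.12 to 11.7 CPM in control libraries (median 7.18) and from 2.78 to 7.73 CPM under nitrogen deficiency (median 5.33). The ranges of the treatments overlapped. The change was -0.52 ± 0.09 log2, or 0.698-fold (adjusted p = 1.29e-07). ATG8E lies 396 bases upstream of AT2G45180 on the same strand, a gene for a protein of the bifunctional inhibitor and lipid-transfer superfamily with a mean of 406 CPM over all libraries. AT2G45180 also fell, by 1.34 on the log2 scale under nitrogen deficiency and by 1.01 under drought. In control libraries ATG8E CPM equalled 0.961% of that neighbour's CPM at the median (0.631% to 1.91%), and under nitrogen deficiency 1.93% (0.840% to 3.35%). Whether reads of the neighbour entered the ATG8E count was not tested.

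**Figure D2:**
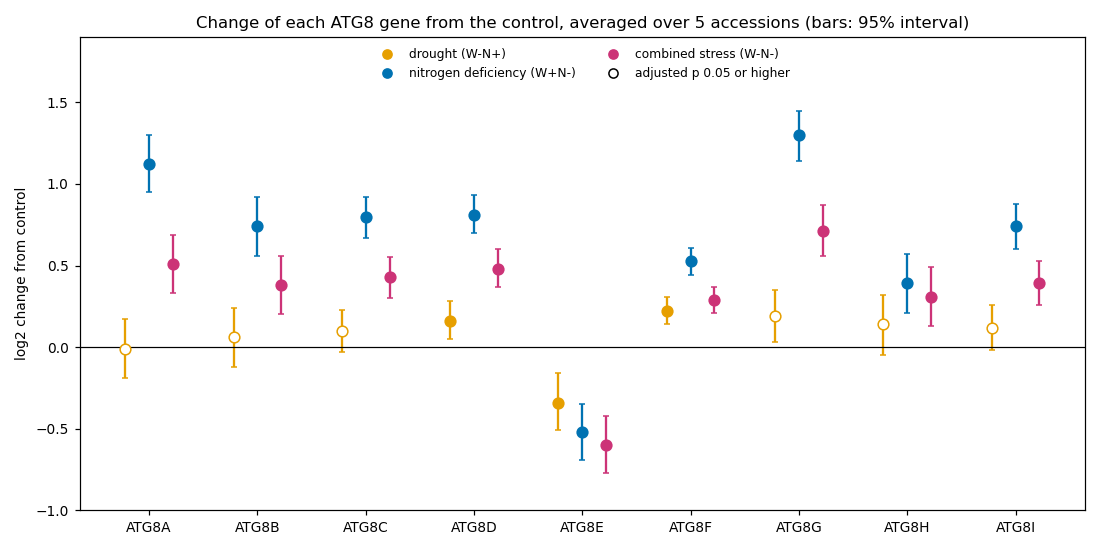
Change of each member from the control (log2, averaged over 5 accessions) in drought, nitrogen deficiency and combined stress; bars are 95% intervals and open points have an adjusted p of 0.05 or higher. For every member except ATG8E the nitrogen deficiency point is the highest of its 3, from 0.39 for ATG8H to 1.30 for ATG8G, and all 3 points of ATG8E lie below 0.

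Combined stress, with nearly the total nitrate of nitrogen deficiency and nearly the volume of drought, moved the same 9 members in the same direction. The change was numerically smaller than under nitrogen deficiency for the 8 that rose and larger for ATG8E. Against the control, 8 members were called higher and 1 lower, with 30.6% of all tested genes called higher and 26.6% lower. ATG8G ran from 4.60 to 14.0 CPM (median 7.19) and rose by 0.71 ± 0.08 log2, the largest change, followed by ATG8A with 0.51 ± 0.09. The other rises lay between 0.29 log2 for ATG8F and 0.48 for ATG8D, and the family median was 0.39 log2 against 0.03 over all tested genes. ATG8E ran from 2.80 to 9.46 CPM (median 4.67) and fell by 0.60 on the log2 scale (SE 0.09, adjusted p = 5.00e-09). ATG8H rose by 0.31 ± 0.09 log2 (adjusted p = 0.00239), and within code P3ID33, 1 of 2 codes in the sample titles whose meaning the labels do not give, it did not pass the test (0.27 log2, adjusted p = 0.0592).

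Set directly against nitrogen deficiency, combined stress gave lower levels of 7 members and higher levels of 0, with 21.2% of all tested genes called lower and 19.6% higher. ATG8A differed most (-0.61 ± 0.09 log2, adjusted p = 6.02e-09), then ATG8G (-0.58 ± 0.08). ATG8E (-0.08 ± 0.09 log2, 95% interval -0.25 to 0.10) and ATG8H (-0.07 ± 0.09, -0.25 to 0.10) did not pass the test, and the call for ATG8B (-0.36 ± 0.09) was lost within code P3ID33 (adjusted p = 0.0916). Set against drought, combined stress gave higher levels of ATG8A, ATG8B, ATG8C, ATG8D, ATG8G and ATG8I, from 0.27 to 0.53 log2, and a lower level of ATG8E (-0.26 ± 0.09, adjusted p = 0.0107). Of all tested genes, 25.1% were called higher and 20.9% lower in that comparison. ATG8F (0.07 ± 0.04 log2) and ATG8H (0.18 ± 0.09) did not pass the test. The call for ATG8E was lost without letter b (adjusted p = 0.0553), without letter c (0.0514) and within code P3ID33 (0.0740), that for ATG8I within P3ID33 (0.0508) and that for ATG8B within P3ID34 (0.0770), while ATG8H passed without the 5 libraries far from their group (0.0441).

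The change under combined stress was compared with the sum of the changes under the single stresses. It fell short of the sum in 7 members, ATG8A, ATG8B, ATG8C, ATG8D, ATG8F, ATG8G and ATG8I, where 14.8% of tested genes were called lower and 15.3% higher. The shortfall ranged from -0.77 ± 0.11 log2 in ATG8G (adjusted p = 1.50e-08) to -0.42 ± 0.13 in ATG8B. The family median was -0.47 log2, against -0.01 over all tested genes. Within code P3ID33 the calls for ATG8A (adjusted p = 0.0522) and ATG8B (0.138) were lost. ATG8E (0.26 ± 0.12 log2, adjusted p = 0.108) and ATG8H (-0.21 ± 0.13, adjusted p = 0.225) did not pass the test. The doses were not crossed evenly, with 0.5 mM nitrate in nitrogen deficiency and 1.5 mM in combined stress. Drought also lowered total nitrate, to about 254 from 802 µmol. A shortfall from the sum therefore cannot be told apart from an effect of the unequal doses.

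Drought, which also lowered total nitrate (about 254 µmol against 802 µmol in the control), changed 3 members. The parts of water and of nitrate in these changes cannot be told apart. ATG8F and ATG8D were called higher, where 10.6% of all tested genes were, and ATG8E lower, where 13.1% were. ATG8F ran from 50.0 to 80.9 CPM under drought (median 64.2) against 46.2 to 63.3 CPM (median 54.6) in the control, a change of 0.22 ± 0.04 log2 (adjusted p = 1.11e-05). ATG8E ran from 3.27 to 10.2 CPM (median 5.98) and fell by 0.34 on the log2 scale (SE 0.09, adjusted p = 0.00210). Both members overlapped with the control, and the call for ATG8E was lost within code P3ID33 (adjusted p = 0.181). ATG8D rose by 0.16 ± 0.06 log2 (adjusted p = 0.0312), and this call was lost without replicate letter a (adjusted p = 0.106), without letter f (0.0840), and within each code. The estimates there stayed close to that of the full fit, at 0.15 log2 without letter a or f, 0.16 within P3ID33 and 0.18 within P3ID34. Each of these fits holds fewer libraries. The 95% intervals of the 6 members not called reached from -0.19 log2 (ATG8A) to 0.35 (ATG8G). ATG8G (0.19 ± 0.08 log2, adjusted p = 0.0850) passed the test without the 5 libraries far from their group (0.22, adjusted p = 0.0106), without letter c (0.0211) and within code P3ID33 (0.0294), and with the length trend as a covariate ATG8G (0.00162) and ATG8I (0.13 log2, 0.00819) both passed.

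Summed over the 9 members, the family level was 143 ± 17.1 CPM per kb (SD, n = 29) in control libraries and 153 ± 17.9 under drought, 234 ± 62.8 under nitrogen deficiency and 182 ± 31.7 under combined stress (SD, n = 30 each). The makeup of that sum also differed between treatments. ATG8A provided 21.3% ± 3.76 of it under nitrogen deficiency and 16.4% ± 2.97 in the control. ATG8F provided 27.8% ± 3.51 and 31.0% ± 3.82, and ATG8E 3.12% ± 1.03 and 6.97% ± 1.50. ATG8I kept a nearly equal share, 15.9% ± 1.47 and 15.6% ± 1.77. These shares were not tested.

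**Figure D3:**
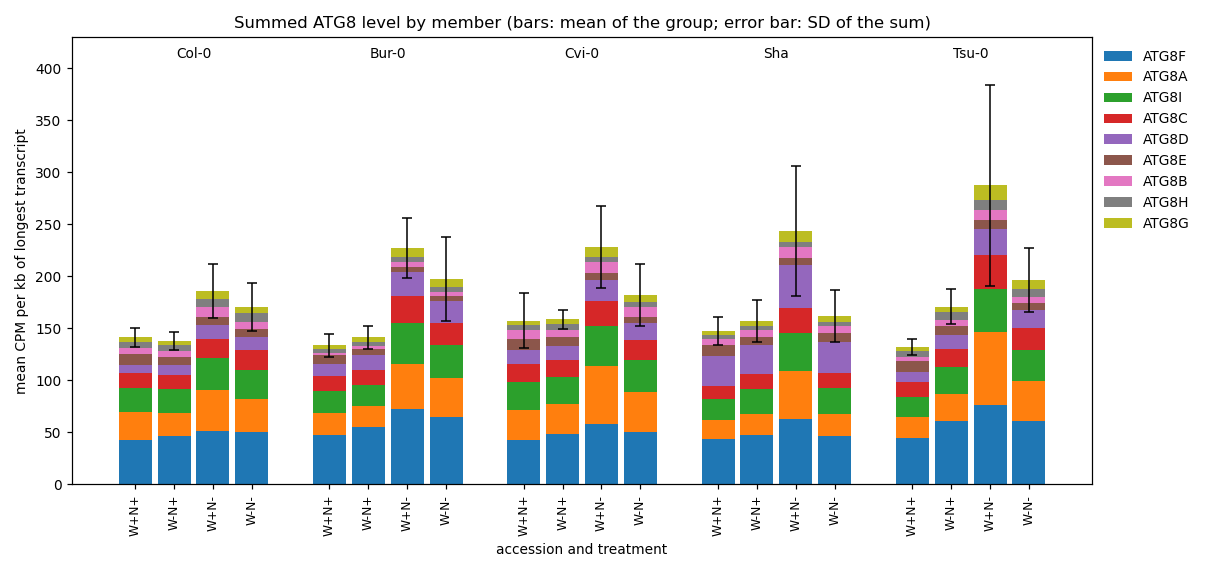
Mean CPM per kb of longest transcript of each member, stacked, in the 20 groups; error bars are the SD of the summed level over libraries. The nitrogen-deficient bar is the tallest of each accession, from 185 CPM per kb in Col-0 to 287 in Tsu-0, where the large SD includes library d with 480.

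Every nitrogen call within an accession had the direction of the averaged change, while the size of the change varied. Every accession had at least 6 members called higher under nitrogen deficiency, and 0 accessions had a member called lower other than ATG8E. Of the 9 members, 7 were called in Col-0 (42.5% of all tested genes were called), 9 in Bur-0 (41.5%), 7 in Cvi-0 (42.5%), 8 in Sha (38.3%) and 8 in Tsu-0 (50.8%). The median change of the family was 0.49 log2 in Col-0, 0.85 in Bur-0, 0.50 in Cvi-0, 0.84 in Sha and 1.10 in Tsu-0.

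ATG8A in Col-0 ran from 19.2 to 31.3 CPM (median 22.9) in the control and from 27.1 to 50.2 CPM (median 34.2) under nitrogen deficiency, and the groups overlapped. In Tsu-0 it ran from 15.7 to 22.1 CPM (median 18.9) and from 37.9 to 142 CPM (median 49.4), with no overlap. The changes of ATG8A were 0.56 ± 0.20 log2 in Col-0, 0.96 ± 0.20 in Cvi-0, 1.04 ± 0.21 in Bur-0, 1.32 ± 0.20 in Sha and 1.75 ± 0.20 in Tsu-0. ATG8G followed the same order, from 0.81 ± 0.18 log2 in Col-0 to 1.85 ± 0.18 in Tsu-0. The change was numerically highest in Tsu-0 for all 9 members, ATG8E included (-0.24 ± 0.19), and lowest in Col-0 for 5.

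Every nitrogen-deficient library exceeded every control library of its accession for 7 members in Bur-0 (13.2% of tested genes did so), 6 in Tsu-0 (12.5%), 4 in Sha (7.49%), 2 in Cvi-0 (7.34%) and 1 in Col-0 (6.95%). In Bur-0, where 5 control libraries had 17.1, 18.7, 19.8, 20.1 and 20.3 CPM of ATG8A, the 6 nitrogen-deficient libraries had 34.2 to 54.4 CPM. ATG8H had overlapping groups in all 5 accessions, and was called higher only in Bur-0 (0.56 ± 0.22 log2) and Tsu-0 (0.83 ± 0.20). ATG8E was called lower in Bur-0 (-0.80 ± 0.21 log2), Cvi-0 (-0.65 ± 0.19) and Sha (-0.56 ± 0.19). In Col-0 its change was -0.35 ± 0.19 log2 and in Tsu-0 -0.24 ± 0.19, neither past the test.

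An F test of the accession-by-nitrogen interaction called 6 members, ATG8A, ATG8C, ATG8D, ATG8F, ATG8G and ATG8I, with 16.1% of all tested genes called. Its adjusted p ranged from 0.00512 for ATG8D to 0.0488 for ATG8I. The count varied with the libraries included. Without replicate letter d, which removes, among others, the Tsu-0 W+N- library at 142 CPM of ATG8A, 0 members were called by edgeR, with adjusted p from 0.161 to 0.703 and 1 member at an unadjusted p below 0.05. Without letter b 1 member was called, without letter e 2, and without the 5 libraries far from their group 2, ATG8D (0.00583) and ATG8F (0.0374). Within the title codes 0 (P3ID33) and 2 (P3ID34) were called. The share of all tested genes called in these smaller sets of libraries is not given here. Whether the loss of calls is particular to the family therefore cannot be read from these counts. Without the 5 libraries far from their group, ATG8A changed by 0.64 ± 0.16 log2 in Col-0, 1.09 ± 0.16 in Sha and 1.33 ± 0.16 in Tsu-0, and the change was highest in Tsu-0 for 7 of 9 members.

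Library d of Tsu-0 W+N- had the highest value of its group for 8 members and the lowest for ATG8E, at a median of 1.79 times the median of the other libraries. Sha W+N- library b had the highest value of its group for 8 members as well, at a median of 1.70 times. Both had among the steepest length slopes, -0.404 and -0.354. The part of transcript length in these values was not tested. In a fit with the length slope as a covariate, 8 members passed the interaction test. The slopes came from deviations from the group mean and average out within each group, so that fit can hardly adjust a group's mean. The share of all tested genes called in that fit is not given here.

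**Figure D4:**
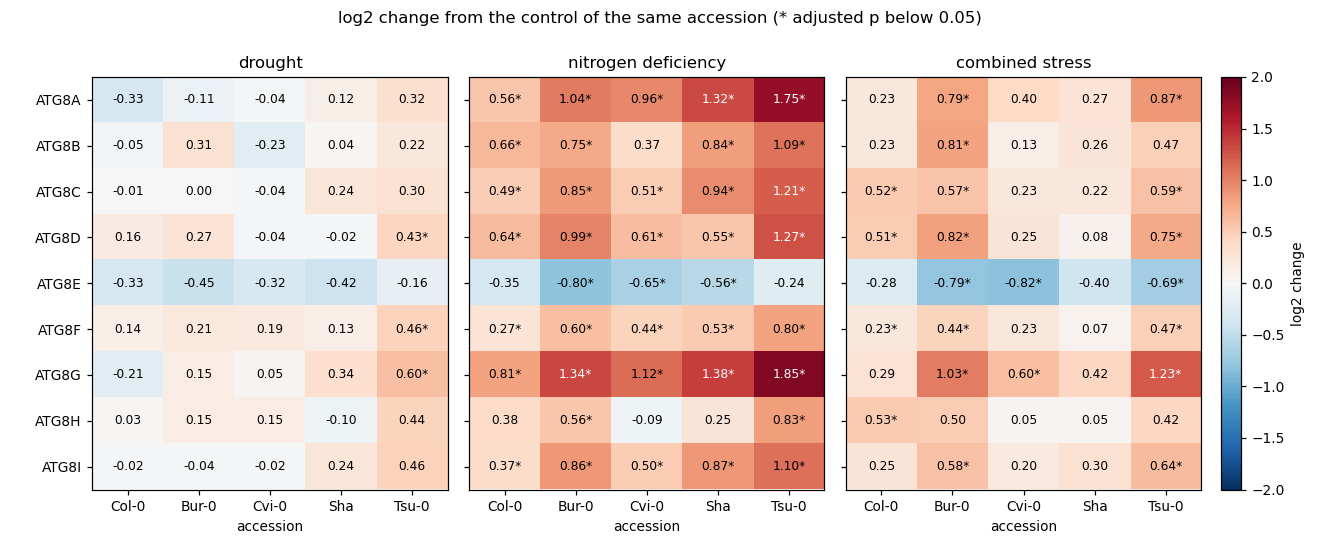
Change of each member (rows) from the control of the same accession (columns) in the 3 stresses, as log2 values and colour; asterisks mark an adjusted p below 0.05. The nitrogen deficiency panel is positive in every row except ATG8E and, for ATG8H, Cvi-0 (-0.09), with the largest values in Tsu-0 (1.85 for ATG8G), and the drought panel holds 3 asterisks, all in Tsu-0.

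Drought within single accessions passed the test only in Tsu-0, for ATG8D, ATG8F and ATG8G (5.85% of tested genes were called there). ATG8F in Tsu-0 ran from 51.5 to 59.6 CPM in the control and from 68.4 to 80.9 CPM under drought, with no overlap, a change of 0.46 ± 0.09 log2 (adjusted p = 2.95e-04). ATG8D changed by 0.43 ± 0.13 log2 and ATG8G by 0.60 ± 0.18, also without overlap between the groups. Of these 3 calls 1 was left without letter d, and with the length trend as a covariate 6 members were called higher in Tsu-0 and 1 lower in Col-0. For these 3 members every drought library exceeded every control library in Tsu-0, as for 1.72% of tested genes. In Col-0 (6.17% of tested genes called), Bur-0 (3.27%), Cvi-0 (1.62%) and Sha (1.72%), 0 members were called under drought by edgeR, DESeq2 or limma voom. At an unadjusted p below 0.05, edgeR gave 0, 3, 1 and 1 members in the same order. The accession-by-drought interaction called 0 members by any of the 3 tools, and 0.619% of tested genes by edgeR. Its adjusted p lay between 0.434 and 0.953, with 1 member, ATG8G, at an unadjusted p below 0.05, so a difference between Tsu-0 and the other accessions was not shown.

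Under combined stress, 8 members were called in Bur-0 (32.2% of tested genes), 7 in Tsu-0 (37.5%), 4 in Col-0 (31.2%), 2 in Cvi-0 (19.7%) and 0 in Sha (17.6%). In Sha, DESeq2 and limma voom also called 0, and 2 members, ATG8E and ATG8G, had an unadjusted p below 0.05 by edgeR. With the length trend as a covariate 2 members were called in Sha and 5 in Cvi-0, without the 5 libraries far from their group 1 was called in Sha, and without letter d 2 were called in Col-0. ATG8G reached 1.23 ± 0.18 log2 in Tsu-0 and 1.03 ± 0.18 in Bur-0, with 0.29 ± 0.18 in Col-0, which did not pass the test. ATG8D gave 0.82 ± 0.13 log2 in Bur-0 and 0.08 ± 0.12 in Sha. The accession-by-combined interaction called those 2 members, ATG8D (adjusted p = 0.00433) and ATG8G (0.0140), with 13.5% of tested genes called. ATG8D was not called without letter c, nor ATG8G without letter b, d or f, and each code alone called 1 of them. In Cvi-0, ATG8E under combined stress (3.46 to 5.39 CPM) lay below every control library (6.01 to 11.7 CPM), a change of -0.82 ± 0.20 log2, and 2.30% of tested genes lay below in this way. Every combined-stress library exceeded every control library for 4 members in Bur-0 (8.42% of tested genes), 4 in Tsu-0 (10.6%), 1 in Col-0 (5.38%), and 0 in Cvi-0 (2.33%) and Sha (3.91%).

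In the control treatment, accessions differed in ATG8A, ATG8B, ATG8C, ATG8D, ATG8H and ATG8I, 6 of 9 members, where 75.6% of tested genes were called. A single set of gene IDs serves the 5 accessions, and any effect of sequence differences on levels between accessions was not tested. ATG8D differed most. In Sha it ran from 20.4 to 30.7 CPM (median 22.9), above every control library of the other 4 accessions, the highest of which was 16.0 CPM in Cvi-0. Against Col-0 (5.63 to 8.13 CPM) the difference was 1.76 ± 0.13 log2, or 3.38-fold (adjusted p = 3.08e-22). Cvi-0 (0.65 ± 0.13 log2) and Bur-0 (0.48 ± 0.14) were also above Col-0. The order was Sha, Cvi-0, Bur-0, Tsu-0 and Col-0, and only the step from Sha to Cvi-0 was without overlap. The 8 flower markers summed to 3.83 to 5.46 CPM in Sha control libraries and to at most 3.25 CPM in those of the other accessions, and their part in the level of ATG8D was not tested.

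ATG8B was lowest in Bur-0, with 1.60, 2.51, 3.62, 3.69 and 4.14 CPM in its 5 control libraries. The next lowest accession, Tsu-0, had 4.53 to 7.43 CPM, and Cvi-0 had the highest level, 7.12 to 16.7 CPM. Bur-0 thus lay below all other accessions, at -1.24 ± 0.22 log2 against Col-0 (adjusted p = 1.68e-06). ATG8H was also lowest in Bur-0 (1.85 to 2.66 CPM), at -0.88 ± 0.22 log2 against Col-0, although it overlapped with Sha (2.60 to 3.62 CPM). Against Col-0, 3 members were called in Bur-0 (36.8% of tested genes), ATG8B and ATG8D in Cvi-0 (42.9%), 3 in Sha (35.0%; ATG8A, ATG8D and ATG8H) and 0 in Tsu-0 (33.7%), where DESeq2 and limma voom also called 0 and ATG8B and ATG8D had an unadjusted p below 0.05. The levels of ATG8E, ATG8F and ATG8G did not pass the test between accessions. Means of ATG8F ran from 53.1 ± 5.27 CPM in Col-0 (SD, n = 6) to 59.2 ± 4.47 in Bur-0 (SD, n = 5). Between accessions, the calls for ATG8A, ATG8C and ATG8I were lost without letter e and within code P3ID33, that for ATG8C also without letter c or f, that for ATG8I without letter d, and those for ATG8A and ATG8H within code P3ID34.

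Most other genes of autophagosome formation were called higher in nitrogen deficiency, 26 of 33. Lists were fixed by role with earlier results of these data known, and the same per-gene tests are given as counts. Of 33 genes for initiation, conjugation, lipid kinase and membrane supply, 26 were called higher and 1 lower under nitrogen deficiency, where 36.6% of all tested genes were higher and 31.4% lower, and 6 did not pass the test. Under combined stress 21 were called higher and 0 lower, against 30.6% and 26.6% of all tested genes. The 3 called higher and 0 lower under drought stand against 10.6% and 13.1%, and the share called higher was near that of all tested genes. Their median change under nitrogen deficiency was 0.42 log2, against 0.74 for ATG8 and 0.05 over all tested genes.

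The same background of 36.6% higher and 31.4% lower applies to each list that follows under nitrogen deficiency. Among 9 genes that process and conjugate ATG8 and ATG12, 7 were called higher. ATG3, the enzyme that transfers ATG8 to the lipid, rose by 0.78 ± 0.03 log2, and the ubiquitin-like ATG12A by 0.90 ± 0.08. ATG7, which activates both ATG8 and ATG12, rose by 0.20 ± 0.06 log2. AT2G44140 and AT3G59950, annotated as peptidases of family C54, the family of ATG4, rose by 0.39 ± 0.04 and 0.42 ± 0.03 log2. ATG10 (-0.10 ± 0.06) and ATG12B (-0.14 ± 0.10) did not pass the test. In combined stress AT2G44140 changed by 0.25 ± 0.04 log2 and AT3G59950 by 0.26 ± 0.03.

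In the initiation complex 7 of 8 genes were called higher and 1 lower. ATG101, a subunit that stabilises the complex, rose by 0.88 ± 0.05 log2, the scaffold ATG11 by 0.57 ± 0.09, ATG13 (AT3G49590) by 0.39 ± 0.04 and its paralog AT3G18770 by 0.72 ± 0.06. Of 4 annotated protein kinases on this list, AT3G61960 rose by 0.65 ± 0.06 log2, AT3G53930 and AT2G37840 rose by 0.16 ± 0.06 and 0.16 ± 0.07, and AT1G49180 fell by 0.50 (SE 0.08). In the complex that makes phosphatidylinositol 3-phosphate, 5 of 6 were called higher, among them VPS34, the lipid kinase itself (0.74 ± 0.07 log2), its partner VPS15 (0.63 ± 0.06) and ATG6 (0.52 ± 0.05). Of 10 genes of the ATG9, ATG2 and ATG18 group, which supply membrane, 7 rose, with 0.91 ± 0.07 log2 for ATG18G, 0.56 ± 0.04 for ATG18A and 0.51 ± 0.05 for ATG9.

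Genes for proteins that bind ATG8 had a lower median change than the machinery. Of 10 receptors and adaptors, 6 were called higher and 1 lower under nitrogen deficiency (36.6% and 31.4% of all tested genes), and their median was 0.13 log2. NBR1, the receptor for ubiquitinated cargo, rose by 0.36 ± 0.03 log2 and by 0.28 ± 0.03 under combined stress. ATI2, a plant-specific ATG8-binding protein, rose by 0.88 ± 0.04 log2 under nitrogen deficiency and its homolog ATI1 by 0.17 ± 0.06. TSPO was called lower (-1.96 ± 0.53), at a mean of 0.133 CPM over all libraries. Of 6 genes of the TOR and SnRK1 complexes, which regulate autophagy by nutrient and energy state, 5 were called higher, led by the SnRK1 kinase KIN10 (0.61 ± 0.03). Of 7 vacuolar proteases, 6 were called higher, and GAMMA-VPE (2.84 ± 0.06 log2) and BETA-VPE (2.50 ± 0.08), which process proteins in the vacuole, had larger values than ATG8G (1.30). SAG12, a protease of senescing leaves, did not pass the test (-1.43 ± 1.22). Its mean was 1.32 ± 2.91 CPM in control and 6.68 ± 21.3 CPM in nitrogen-deficient libraries (SD), and its values over all libraries ran from 0 to 129 CPM.

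**Figure D5:**
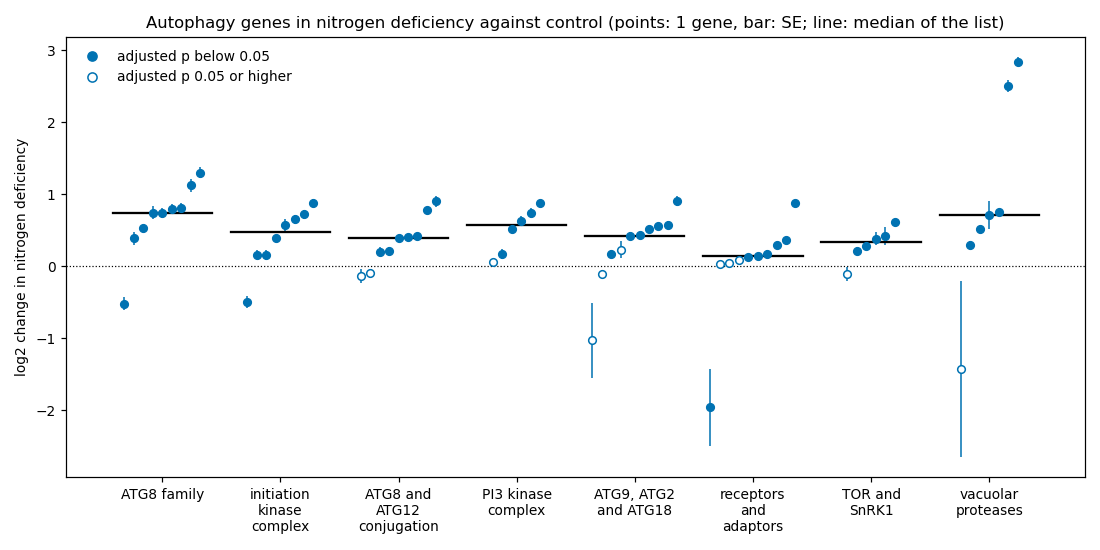
Change of each gene under nitrogen deficiency (log2, averaged over accessions) by list; points are genes with their SE, filled where the adjusted p is below 0.05, and black lines are list medians. The ATG8 median (0.74) and the vacuolar protease median (0.71) are the highest and that of receptors and adaptors (0.13) the lowest, and the largest values are GAMMA-VPE and BETA-VPE.

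The members moved together across groups apart from ATG8E and, in part, ATG8H. Over 20 values, the group means of log2 CPM after removal of each accession's mean, Pearson's r was 0.98 for ATG8A with ATG8G and for ATG8C with ATG8I. Among ATG8A, ATG8B, ATG8C, ATG8D, ATG8F, ATG8G and ATG8I it was at least 0.88, and for ATG8H with these it was 0.70 to 0.81. ATG8E had negative values with all 8 others, from -0.70 with ATG8G to -0.42 with ATG8H. These values are descriptions, since groups share accessions and controls and 3 treatments set most of the pattern.

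Genes most like a member were taken as the 3 of highest r over the same 20 values among tested genes whose mean CPM reached 5. For ATG8G they included VTI1B, which encodes a SNARE of vesicle transport (0.99), and NYE1, a chlorophyll breakdown gene (0.99), and NYE1 also led the list of ATG8A (0.98). ATG8B had CIPK25 (0.97) among its 3, ATG8D the ubiquitin-conjugating enzyme gene UBC4 (0.98), ATG8F ACR10 (0.96), and ATG8H was led by BIM3 (0.94). ATG8C was 1 of the 3 for ATG8I (0.98). Not all of the 3 are named here, and ATG8B was led by the uncharacterized AT1G16840 (0.97) and ATG8D by the RING/U-box gene AT5G38895 (0.99). How many other genes came close to these values is not given, and no link in function was tested. The gene most like ATG8E was its neighbour AT2G45180 (0.95). Among the tested genes adjacent to the other members, the highest value was 0.85, for ATG8D with AT2G05632.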

How the data were processed

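The authors deposited 1 table of raw read counts per gene for all 119 libraries, and those counts were used as deposited. Per the labels' protocols, RNA came from RNeasy columns and the library kit was TruSeq Stranded mRNA. Trimmomatic 0.36 and HISAT2 are named, per the submitters' processing notes. Which build and counter were used, and whether strand was read in counting, is not given in the sources used here. Gene models, positions and sequences came from RefSeq TAIR10.1, matched by gene ID (32548 of 32833 IDs, and all 9 members).

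Groups follow the labels. Library totals ranged from 9698708 to 110420763 counts, and the smallest member count was 16. Genes were filtered with filterByExpr, scaled by TMM and fitted across all 20025 genes with edgeR 4.0.16 in R 4.3.3 (quasi-likelihood test, 20 groups plus the code P3ID33 or P3ID34 in the titles, which the labels do not explain). P-values were adjusted over all tested genes by Benjamini-Hochberg at 0.05, per comparison. The ± values of log2 changes are standard errors, and log2 CPM for correlations used a prior count of 2. Replicate letters were not used to pair libraries. Libraries were called far from their group where their deviation over all genes was over 4 median absolute deviations above the median.

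All 9 members are described, and other genes are named by list and rank in adjusted p or by a known role. The members and lists were chosen with earlier results of these data known, so their counts and medians are descriptions. Alternatives were DESeq2 1.42.0, limma 3.58.1 (voom), other size factors, no filter, no code term, each code alone, a replicate block, leaving out each replicate letter, organelle genes, the far libraries, and a covariate for the length trend. The edgeR fit was tried on simulated counts, for the averaged nitrogen deficiency comparison only.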

Additional observations from a re-analysis of the deposited data

Results flagged for a closer look

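In 18 of 180 combinations of member and group, 1 library lay apart from the rest of its group by Dixon's criterion, which chance meets in about 1 in 20. Tsu-0 W+N- library d was highest for ATG8A (142 CPM), ATG8B (24.1 CPM), ATG8G (27.2 CPM), ATG8H (14.7 CPM) and ATG8I (64.8 CPM). ATG8A also had a high library in Bur-0 W+N- (d, 54.4 CPM), Bur-0 W-N- (c, 59.5 CPM) and Sha W-N+ (a, 26.9 CPM), where ATG8B was high too (11.3 CPM). ATG8E had a high library in Bur-0 W-N- (d, 5.16 CPM), Sha W-N+ (f, 10.2 CPM), Tsu-0 W+N+ (a, 10.1 CPM) and Tsu-0 W-N- (f, 7.90 CPM). ATG8D was high in Bur-0 W+N+ library a (12.4 CPM) and ATG8G in Col-0 W+N+ library f (6.96 CPM). ATG8H was low in Sha W-N+ library c (1.25 CPM) and Sha W-N- library b (1.96 CPM), and high in Sha W+N- library b (5.79 CPM).

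In the fit with all libraries, the interaction test called a nitrogen response that differed between accessions for 6 members. Its edgeR adjusted p was 0.0130 for ATG8A, 0.0165 for ATG8C, 0.00512 for ATG8D, 0.0197 for ATG8F, 0.0158 for ATG8G and 0.0488 for ATG8I. For the combined response it called ATG8D (adjusted p = 0.00433) and ATG8G (0.0140). With 1 replicate letter left out, the nitrogen calls numbered 0 to 5 and the combined calls 1 to 3.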

How the results depend on the processing

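The 8 rises and the fall under nitrogen deficiency kept their direction and passed the test under all alternatives run. ATG8A under drought, -0.01 log2, changed sign without the filter (0.00), within code P3ID33 (0.00), without the far libraries (0.01) and when 1 letter was left out (-0.03 to 0.05). ATG8H in combined stress against nitrogen deficiency reached 0.03 log2 without the far libraries. With the length trend as a covariate, drought called 5 members, the drought interaction 4, the combined interaction 6 and the accessions against Col-0 15 of 36, where 3, 0, 2 and 8 were called in the fit used in the report. Without 1 letter, accessions against Col-0 called 6 to 9. The nitrogen interaction, 6 members, called 0 within code P3ID33, 2 within P3ID34, 2 without the far libraries and 0 to 5 without 1 letter. The combined interaction called 1 within each code and 1 to 3 without 1 letter. Accession differences fell from 6 members to 3 within code P3ID33, and to between 3 and 6 without 1 letter. For counts under the alternatives, the share of all tested genes called is not given here. Whether these changes in count are particular to the family cannot be read from them. The causes were not tested. With a replicate block, all 54 averaged changes kept their side of the threshold and 63 of 135 calls within accessions were made, as without it. Deviations of libraries with the same letter, accession and code but different treatments had a median correlation of 0.0044 (-0.4 to 0.39). For different letters the median was 0.028. By these medians libraries sharing a letter were no more alike, which does not settle whether the letters mark pairs. Each accession fitted alone gave 67 calls. Leaving out the library highest in flower markers, chosen after seeing the data, changed no call among the 54. Low members, such as ATG8H with 16 to 663 reads, have the widest counting error.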
